A study of Mus musculus with 15 samples.

Results

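Immediate early genes are switched on within minutes of a stimulus, without new protein synthesis, when kinase cascades act on transcription factors already bound at their promoters. Their products are mainly transcription factors, which pass the signal on to later genes, and a few are secreted. In heart and liver they are known to respond to growth factors, stretch, ischaemia, feeding and handling of the tissue, and their RNAs are short-lived. The 10 genes described here are Fos, Fosb, Jun, Junb, Egr1, Egr2, Egr3, Atf3, Ccn1 and Ccn2. They were found by gene symbol in the platform annotation of an Illumina bead array, which gave 12 of the 25697 probes and 10 of the 16593 named genes in the table, 3 of them for Ccn1 and 1 for each other gene.

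The arrays carried total RNA from hearts and livers of male C57BL/6J-Tyr mice aged 17 weeks, either homozygous for a mutation of Abcb5 or wild type. ABCB5 is a membrane transporter of the ATP-binding cassette family. The labels do not say what the mutation is, and 0 probes carried the symbol Abcb5, so the genotype was not checked by its own transcript. There were 4 mutant and 4 wild-type hearts, and 3 mutant and 4 wild-type livers. By the mouse numbers in the labels the 15 arrays stand for 8 animals, 7 with heart and liver and 1 mutant with the heart alone, so each array of a tissue was a separate animal.

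Values are given as deposited intensity, on a linear scale. Changes are mutant minus wild type on a log2 scale after background correction and addition of 16, which makes the changes of dim probes smaller than those of the RNA. The tissues had been scaled apart (array medians of 8.045 to 8.079 in hearts and 113.105 to 113.112 in livers), so no level was compared between tissues, nor between probes. A liver probe counted as above background from an intensity of 114.3 and a heart probe from 1.2. Heart muscle markers were all above background in the hearts (7 of 7 tested), while 0 of 7 were tested in the livers. Of the hepatocyte markers 6 of 8 were tested in the livers and 4 of 8 in the hearts. Tat was above background on no array of either tissue, and Alb on no heart. Alb was dim in the livers too (mean log2 values of 5.06 in the mutants and 5.08 in wild type). Wild-type heart 4 stood apart in its highest intensity, 55709.9 against 23655.5 to 29793.5 on the other hearts. In bulk tissue, fewer cells of a type and less RNA per cell cannot be told apart.

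In the mutant hearts Fos and 1 probe of Ccn1 fell, while no member passed the test in the livers. All 12 probes were tested in heart, and 2 of 12 passed limma's test at a Benjamini-Hochberg adjusted p below 0.05, both lower in the mutants. Over all 18493 heart probes tested, 1.98% passed (0.838% lower). At an unadjusted p below 0.05 there were 4 of the 12, against 15.7% of all heart probes. The genotypes did not overlap for 4 of the 12 probes, 2 higher and 2 lower in the mutants, against 10.1% of all heart probes (5.47% higher and 4.58% lower). In liver 8 of the 12 probes, of 7 genes, were bright enough to be tested, and 0 passed limma's test, against 0.100% of 11945 probes. At an unadjusted p below 0.05 there were 3 of the 8 liver probes (Egr1, Egr2 and Ccn2), against 11.4% of all. The heart background rested on 367 called probes, a count of 198 without wild-type heart 3 or without mutant heart 3, 211 without wild-type heart 1 and 226 without mutant heart 1. The liver background rested on 12 probes, a count of 2 without wild-type liver 1, mutant liver 2 or mutant liver 3, 6 when wild-type liver 3 was left out, 24 in the absence of wild-type liver 4 and 54 when mutant liver 1 was left out.

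**Figure D1:**
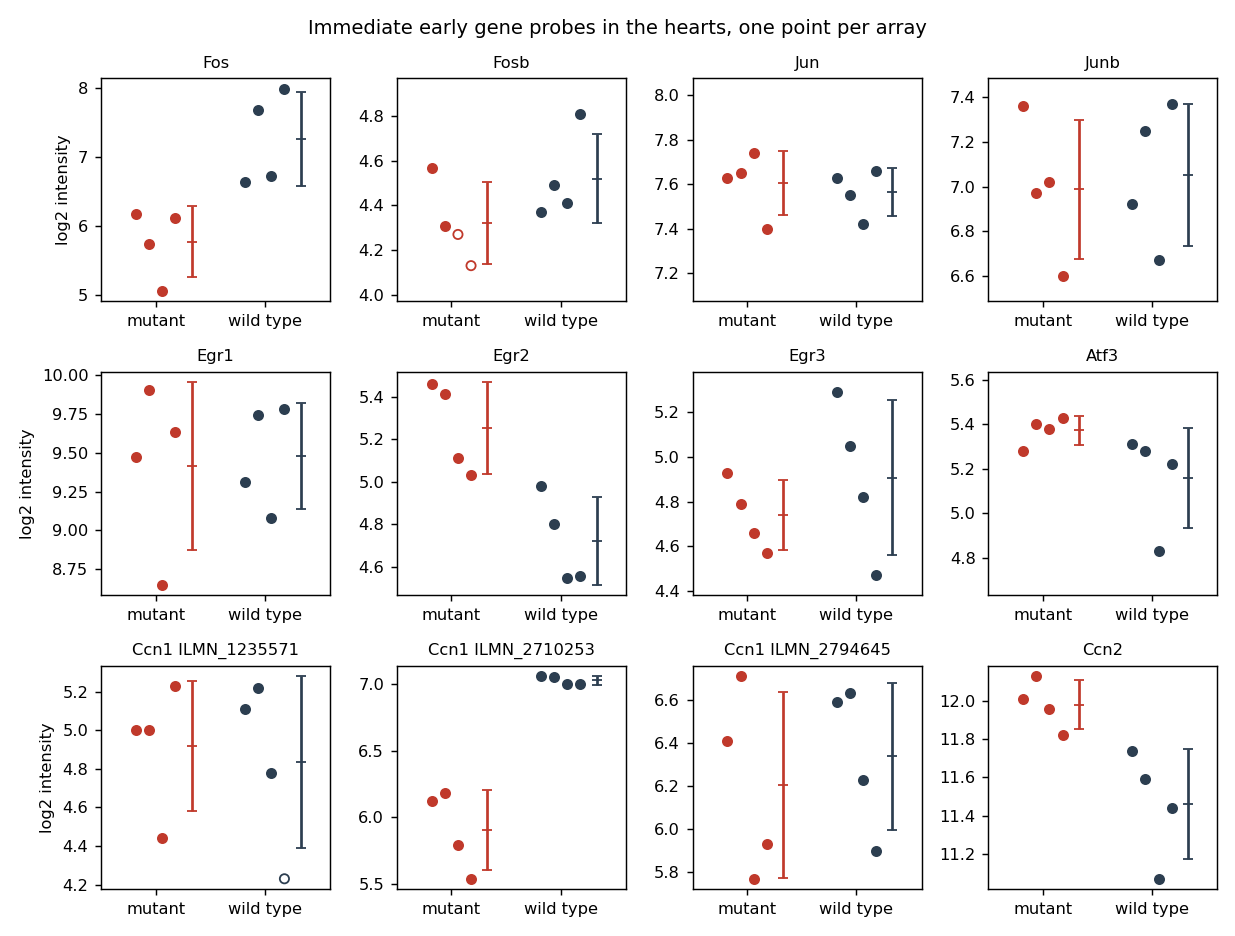
Log2 intensity (background-corrected, plus 16) of the 12 member probes in the 4 mutant hearts (red, left) and the 4 wild-type hearts (dark, right). Points are arrays, hollow where not above background, and bars are the mean ± SD. The mutant points lie below all wild-type points for Fos and for Ccn1 probe ILMN_2710253, and above all of them for Egr2 and Ccn2.

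The promoters of 3 members are shown because their values separated the genotypes in the hearts: Fos and a probe of Ccn1, which were lower in the mutants, and Egr2, which was higher. The sequences are RefSeq's for mouse build GRCm38.p6, 300 bases from 250 before the annotated start site to 50 after it, read along the gene. Capitals mark the CArG box, the binding sequence of serum response factor, and the core of the cyclic AMP response element (CRE core), TGACGT on either strand.

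Fos, chr12:85473640-85473939, plus strand: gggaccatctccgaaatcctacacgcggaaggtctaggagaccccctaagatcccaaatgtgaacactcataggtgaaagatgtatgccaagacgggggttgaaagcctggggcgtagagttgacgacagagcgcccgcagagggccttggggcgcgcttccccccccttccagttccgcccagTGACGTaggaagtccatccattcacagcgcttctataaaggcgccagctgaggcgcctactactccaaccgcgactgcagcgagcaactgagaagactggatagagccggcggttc

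Ccn1, chr3:145649936-145650235, minus strand: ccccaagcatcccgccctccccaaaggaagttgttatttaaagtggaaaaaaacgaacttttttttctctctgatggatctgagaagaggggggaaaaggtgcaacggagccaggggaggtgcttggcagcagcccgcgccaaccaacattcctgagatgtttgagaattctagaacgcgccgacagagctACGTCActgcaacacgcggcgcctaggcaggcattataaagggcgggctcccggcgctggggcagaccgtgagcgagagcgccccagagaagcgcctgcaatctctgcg

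Egr2, chr10:67537619-67537918, plus strand, 1 of 5 windows of this gene: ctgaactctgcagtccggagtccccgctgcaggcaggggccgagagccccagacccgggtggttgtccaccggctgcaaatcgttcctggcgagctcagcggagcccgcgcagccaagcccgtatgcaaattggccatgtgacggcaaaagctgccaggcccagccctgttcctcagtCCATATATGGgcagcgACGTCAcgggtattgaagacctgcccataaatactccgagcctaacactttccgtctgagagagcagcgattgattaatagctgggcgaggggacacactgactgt

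The CRE core began 66 bases before the start in Fos, 59 before it in Ccn1 and 56 before it in the Egr2 window shown. That Egr2 window also held a CArG box, 72 bases before the start. In the other Egr2 windows the CRE core began 57 or 117 bases before the start or was absent. Of the 10 members, 7 had a window in the table (all but Egr1, Egr3 and Ccn2). Among the 7, the CRE core was found in 4 (Fos, Egr2, Atf3 and Ccn1) and the CArG box in 1, Egr2. A gene was counted when any of its windows held the motif. Sequence farther from the start than the windows reach was not searched, nor were the promoters of Egr1, Egr3 and Ccn2. A gene without a CArG box or CRE core in its window may therefore have one elsewhere. Counted the same way, 8.37% of all 27025 genes with a window held the CRE core and 1.81% the CArG box, and per window the shares were 7.51% and 1.63% of 32851. The CRE core was added to the search after the members' windows had been seen. The other motifs searched on both strands were the full CRE (TGACGTCA, 0 of 7 members, 2.03% of all genes), the AP-1 motif (TGANTCA, 0 of 7, 8.97%), the EGR motif (GCGNGGGCG, 1 of 7, Fosb, 6.27%) and the TEAD motif (GGAATG, 2 of 7, Egr2 and Ccn1, 16.6%). The full CRE contains the CRE core, so those motifs overlap. TATAAA on the gene's own strand was found in 3 of 7 (Fos, Junb and Ccn1) and in 9.77% of all genes.

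Fos encodes the AP-1 subunit that pairs with Jun proteins. In the mutant hearts its probe read 53.4, 34.7, 14.7 and 50.5, against 80.4, 187.2, 87.4 and 235.8 in the wild-type hearts. Every mutant heart was below every wild-type heart, and the wild-type hearts spread widely among themselves. Fos fell by 1.49 on the log2 scale (SE 0.31, n = 4 and 4 mice, 2.82-fold lower, limma adjusted p = 0.0306). The change kept its sign in all 18 alternative settings, from -1.92 to -1.08, but the call held in 9 of them. It was lost without wild-type heart 2 (-1.35, adjusted p = 0.0771), without wild-type heart 4 (-1.25, adjusted p = 0.0580) and without mutant heart 2, 3 or 4 (limma adjusted p = 0.0714, 0.0789 and 0.0528).

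In the livers Fos was near background. Its probe read 114.4, 111.8 and 111.4 in the mutant livers, against 125.4, 136.5, 112.2 and 112.4 in the wild-type livers. It was above background on 1 of 3 mutant and 2 of 4 wild-type livers, and wild-type livers 1 and 2 were the bright ones. The log2 change of -0.45 ± 0.25 (SE) did not pass the test (limma adjusted p = 0.544).

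Fosb, the Fos relative, was dim in the hearts, with 5.40, 1.22, 0.58 and -2.94 in the mutants, against 2.16, 4.08, 2.82 and 9.62 in wild type. It was above background on 2 of 4 mutant and 4 of 4 wild-type hearts, the groups overlapped, and the log2 change was -0.20 ± 0.13 (limma adjusted p = 0.496). In the livers it was above background on 1 of 3 mutant and 1 of 4 wild-type arrays and was not tested.

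Jun and Junb encode the AP-1 partners of the Fos proteins. The heart values of Jun were 179.4, 181.9, 195.9 and 150.5 in the mutants, against 179.6, 169.5, 152.6 and 183.6 in wild type. The groups covered almost the same range, with a log2 change of 0.04 ± 0.10 (limma adjusted p = 0.898). In the livers Jun read 137.9, 127.5 and 128.8 in the mutants, against 133.1, 138.0, 129.0 and 132.8 in wild type (log2 change -0.07 ± 0.14, limma adjusted p = 0.890), again overlapping.

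Junb read 145.7, 107.0, 111.5 and 78.3 in the mutant hearts, against 102.8, 134.3, 83.5 and 146.9 in the wild-type hearts. Both groups ran from low to high, and the log2 change was -0.07 ± 0.18 (limma adjusted p = 0.898). In the livers Junb read 196.4, 209.9 and 166.4 in the mutants, against 229.0, 264.3, 210.2 and 195.0 in wild type. Only wild-type liver 4 fell inside the mutant range, and the log2 change of -0.43 ± 0.20 did not pass (limma adjusted p = 0.454).

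Atf3, a stress-induced transcription factor related to the AP-1 subunits, read 20.5, 23.9, 23.3 and 24.7 in the mutant hearts, against 21.4, 20.5, 10.1 and 18.9 in the wild-type hearts. Wild-type heart 3 was low, and the mutant value was the higher in 15 of 16 pairs of a mutant with a wild-type heart. The log2 change was 0.21 ± 0.12 (limma adjusted p = 0.411). In the livers Atf3 was not tested: it was above background on 2 of 3 mutant arrays (117.3 and 120.1) and on 0 of 4 wild-type arrays, where the highest value was 113.9.

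The Egr genes encode zinc-finger transcription factors, of which Egr1 is induced in most tissues by serum and stress. Egr1 was far above background in the hearts and did not separate the genotypes there. It read 692.5, 934.3, 383.3 and 775.0 in the mutant hearts, against 618.5, 838.8, 524.1 and 862.1 in the wild-type hearts. The lowest and the highest heart were both mutants, and the log2 change was -0.07 ± 0.24 (limma adjusted p = 0.927).

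In the livers Egr1 had the largest difference among the members, without passing the test. It read 350.9, 312.3 and 204.5 in the mutant livers, against 2076, 1402, 549.3 and 403.9 in the wild-type livers. Every mutant liver was below every wild-type liver, and the wild-type livers fell into a bright pair (1 and 2) and a dimmer pair (3 and 4). The log2 change was -2.08 ± 0.55 (4.23-fold lower, unadjusted p = 0.0027 and adjusted p = 0.199 in limma's fit over all liver probes). Leaving out single livers gave -2.52 to -1.63, with adjusted p = 0.0784 to 0.454. A single fit of all 15 arrays, in which hearts and livers share 1 estimate of the spread, gave the same change with limma adjusted p = 0.0461. That fit took the heart and liver of a mouse as unrelated. The log2 SDs of Egr1 were 0.65 in mutant and 1.26 in wild-type livers, but 0.54 and 0.34 in the hearts.

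**Figure D2:**
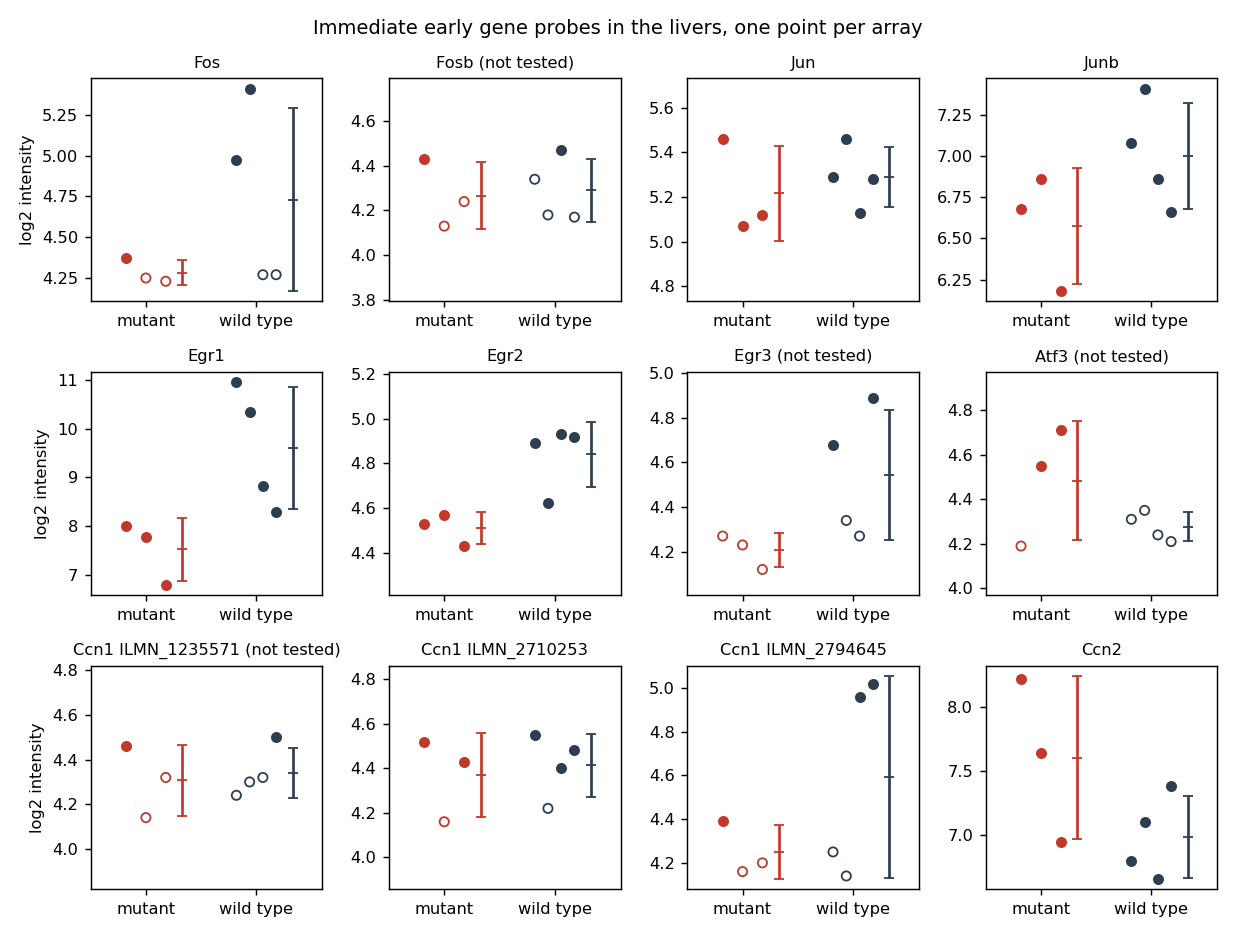
Log2 intensity (background-corrected, plus 16) of the 12 member probes in the 3 mutant livers (red, left) and the 4 wild-type livers (dark, right). Points are arrays, hollow where not above background, and bars are the mean ± SD. Most members sit near background, and the mutant points lie below all wild-type points for Egr1 and Egr2.

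Egr2 was higher in the mutant hearts and lower in the mutant livers by value, and neither difference passed the test within its tissue. The hearts read 25.5, 24.3, 16.2 and 14.3 in the mutants, against 13.2, 9.45, 5.02 and 5.28 in wild type. All mutant hearts were above all wild-type hearts (log2 change 0.53 ± 0.13, limma adjusted p = 0.0667). In the livers Egr2 was near background and read 117.0, 117.6 and 115.4 in the mutants, against 123.7, 118.6, 124.3 and 124.2 in wild type. All mutant livers were below all wild-type livers, with wild-type liver 2 close to them (log2 change -0.33 ± 0.13, limma adjusted p = 0.355). The genotypes did not overlap for 2 of the 8 liver probes, Egr1 and Egr2, both lower in the mutants, against 11.2% of all liver probes (5.40% higher and 5.77% lower).

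Egr3 read 12.2, 9.30, 6.85 and 5.38 in the mutant hearts, against 20.8, 14.7, 9.94 and 3.80 in the wild-type hearts. The wild-type hearts spread over the whole mutant range, and the log2 change was -0.17 ± 0.16 (limma adjusted p = 0.661). In the livers it was not well above background on any of the 3 mutant arrays, was above it on 2 of 4 wild-type arrays (119.5 and 123.5), and was not tested.

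Ccn1 and Ccn2 encode secreted matricellular proteins of the CCN family, which bind integrins, and both are known targets of the co-activator YAP with TEAD factors. Of the 3 probes of Ccn1, 1 passed the test in the hearts. Probe ILMN_2710253 read 51.2, 54.1, 36.9 and 28.1 in the mutants, against 115.2, 114.1, 110.0 and 109.2 in wild type. The wild-type hearts lay very close together and all mutant hearts lay far below them. This probe fell by 1.12 on the log2 scale (SE 0.13, 2.17-fold lower, limma adjusted p = 0.00129), and without wild-type heart 4 it stood at -1.13 with adjusted p = 0.00292. The call held in 17 of 18 alternative settings and was lost when intensities were floored at 16 and not background-corrected (adjusted p = 0.0528).

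The other probes of Ccn1 did not pass the test, and their difference from ILMN_2710253 was not tested. Probe ILMN_2794645 read 66.8, 86.6, 36.3 and 42.8 in the mutant hearts, against 77.7, 80.6, 56.9 and 41.3 in the wild-type hearts, with a log2 change of -0.13 ± 0.21 (limma adjusted p = 0.825). Probe ILMN_1235571 read 13.6, 13.7, 3.30 and 19.1 in the mutant hearts, against 16.2, 18.8, 9.05 and -0.272 in the wild-type hearts, with a log2 change of 0.08 ± 0.21 (limma adjusted p = 0.895). For both of these probes the genotypes overlapped.

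The call is given for this probe and not for Ccn1 RNA as a whole. Of 125 genes with a called probe and at least 2 tested probes in heart, 108 (86.4%) also had an uncalled probe. Where on the transcript each probe lies was not analysed here.

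In the livers all Ccn1 probes were near background. ILMN_2710253 ranged from 109.3 to 116.8 in the mutants and from 111.0 to 117.4 in wild type (log2 change -0.04 ± 0.14, limma adjusted p = 0.946). ILMN_2794645 ranged from 108.9 to 114.6 in the mutants and from 108.3 to 126.3 in wild type (log2 change -0.34 ± 0.21, limma adjusted p = 0.606), and it was above background on mutant liver 1 and wild-type livers 3 and 4. ILMN_1235571 was not tested there.

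Ccn2 was higher in the mutants of both tissues by value. It read 4098, 4458, 3975 and 3607 in the mutant hearts, against 3412, 3068, 2127 and 2763 in the wild-type hearts. All mutant hearts were above all wild-type hearts, with a log2 change of 0.52 ± 0.14 (1.43-fold, limma adjusted p = 0.0841). In the livers it read 392.4, 292.8 and 217.7 in the mutants, against 205.1, 231.4, 195.3 and 260.2 in wild type. The mutant value was the higher in 10 of 12 pairs (log2 change 0.62 ± 0.26, limma adjusted p = 0.398), with mutant liver 3 inside the wild-type range.

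**Figure D3:**
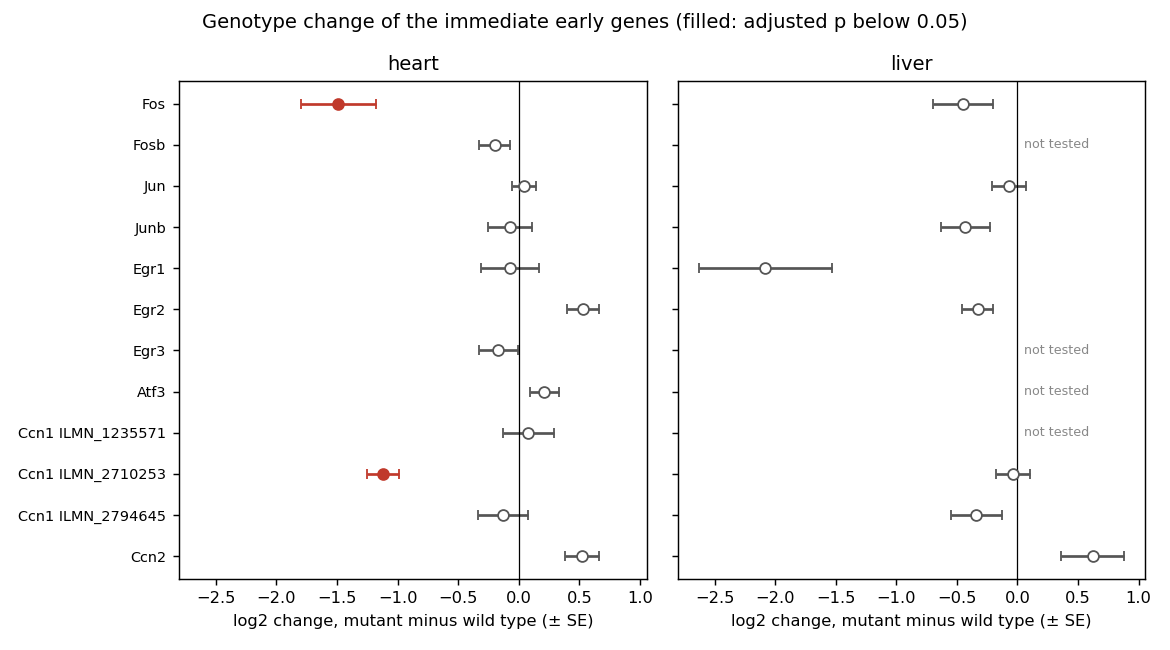
Log2 change, mutant minus wild type, of each member probe in the hearts (left) and the livers (right), with the SE of limma's fit as bars. Filled points passed an adjusted p below 0.05: Fos at -1.49 and Ccn1 probe ILMN_2710253 at -1.12 in the hearts, and none in the livers.

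Over the members as a group, the median log2 change was -0.07 in heart, where 5 probes were positive and 7 negative, beside 0.005 over all heart probes tested. In the livers it was -0.34, with 1 probe positive (Ccn2) and 7 negative, beside -0.004 over all liver probes. These medians include the near-background probes that passed the filter.

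The change in liver minus the change in heart was tested for the 8 probes measured in both tissues, in a single fit with the mouse as a random block. It passed for 2 of 8, against 2.17% of 11415 probes (248 probes, a count of 136 to 158 without wild-type heart 1, 2 or 3, mutant heart 1, 2 or 3, wild-type liver 1 or 2, or mutant liver 3). For Egr2 the difference was -0.86 ± 0.18 (limma adjusted p = 0.0202), from -0.33 in liver and 0.53 in heart. In the livers Egr2 was near background too (115.4 to 124.3, where 114.3 counted as above it). For Ccn1 probe ILMN_2710253 it was 1.08 ± 0.19 (limma adjusted p = 0.00999), from -0.04 in liver, where the probe was near background, and -1.12 in heart.

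The Egr2 difference lost its call without mutant liver 3 (-0.82, limma adjusted p = 0.0512) and with a floor of 16 (-0.40, adjusted p = 0.288). That floor took the place of background correction and lay far below the liver values, so the liver background stayed in and made liver changes smaller. Egr1 differed by -2.01 ± 0.66 (limma adjusted p = 0.127), a difference that passed without wild-type liver 4 (-2.46, adjusted p = 0.0330). For Fos it was 1.05 ± 0.46 (limma adjusted p = 0.265), so the heart change of Fos was not shown to differ from that in liver. The remaining probes ranged from -0.36 for Junb to 0.10 for Ccn2 (limma adjusted p = 0.574 to 0.914). These differences set log2 changes of separately scaled tissues beside each other.

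Among single arrays, the low member values did not fall on 1 heart: mutant heart 4 was lowest of the hearts for 4 of 12 probes, and mutant heart 3 and wild-type heart 3 for 3 each. Among the livers mutant liver 3 was lowest for 4 of 8 probes and wild-type liver 2 highest for 3. Within genotypes, Fos varied with Egr1 across the arrays (Pearson r = 0.785 over 8 hearts and 0.812 over 7 livers, both probes from the same arrays). With the other member probes it correlated at -0.385 (Egr3) to 0.613 (Fosb) in the hearts. In the livers those values ran from -0.92 (Ccn1 probe ILMN_2794645) and -0.776 (Egr2) to 0.738 (Junb). In the livers Fos was above background on only 1 of 3 mutant and 2 of 4 wild-type arrays. Its SD there was 0.08 in the mutants and 0.56 in wild type, so the liver correlations of Fos rest mainly on the wild-type livers. The genes most like Fos by this measure were led by Sh3glb1 (0.992) and Slfn1 (0.979) in the hearts and Ppp1r13b (0.993) and Vps37b (0.987) in the livers. Those most like Egr1 were led by Rbm18 (0.971) and Gid4 (0.957) in the hearts and Mtfp1 and Mrgprg (both 0.996) in the livers. For Ccn1 they were led by Klc1 (0.989) and Hnrnph1 (0.985) in the hearts (probe ILMN_2710253) and by Styxl1 (0.996) in the livers (probe ILMN_2794645). The correlation of ILMN_2710253 with Fos in the hearts was 0.018. The genes named as most like a member have the highest values of all probes tested over few arrays. All these correlations are given as a description.

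Among other early response genes, few passed the test. Of 38 listed genes 29 were tested in the hearts, and 1 rose and 0 fell, with 2.18% of all heart genes called. The gene that rose was Errfi1, a feedback inhibitor of the EGF receptor (log2 change 0.71 ± 0.15, limma adjusted p = 0.0333). Its call was lost without wild-type heart 1 or 3 or any single mutant heart (limma adjusted p = 0.0503 to 0.0978). The median log2 change of the list was -0.05, beside 0.01 over all genes, and 10 of the 29 had p below 0.05 before adjustment, against 15.7% of all heart probes. Short of the threshold, the small Maf protein Maff stood at 0.38, the endothelial factor Klf2 at -0.38, the AP-1 subunit Jund at -0.34 and the phosphatase Dusp1, which switches off MAP kinases, at -0.41 (limma adjusted p = 0.0891, 0.142, 0.180 and 0.197). In the livers 21 were tested and 0 passed limma's test, with 5 at an unadjusted p below 0.05 against 11.4% of all liver probes. The kinase Plk3 stood at 1.14 ± 0.26 there (limma adjusted p = 0.160) and Errfi1 at 0.40 ± 0.14 (adjusted p = 0.312).

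**Figure D4:**
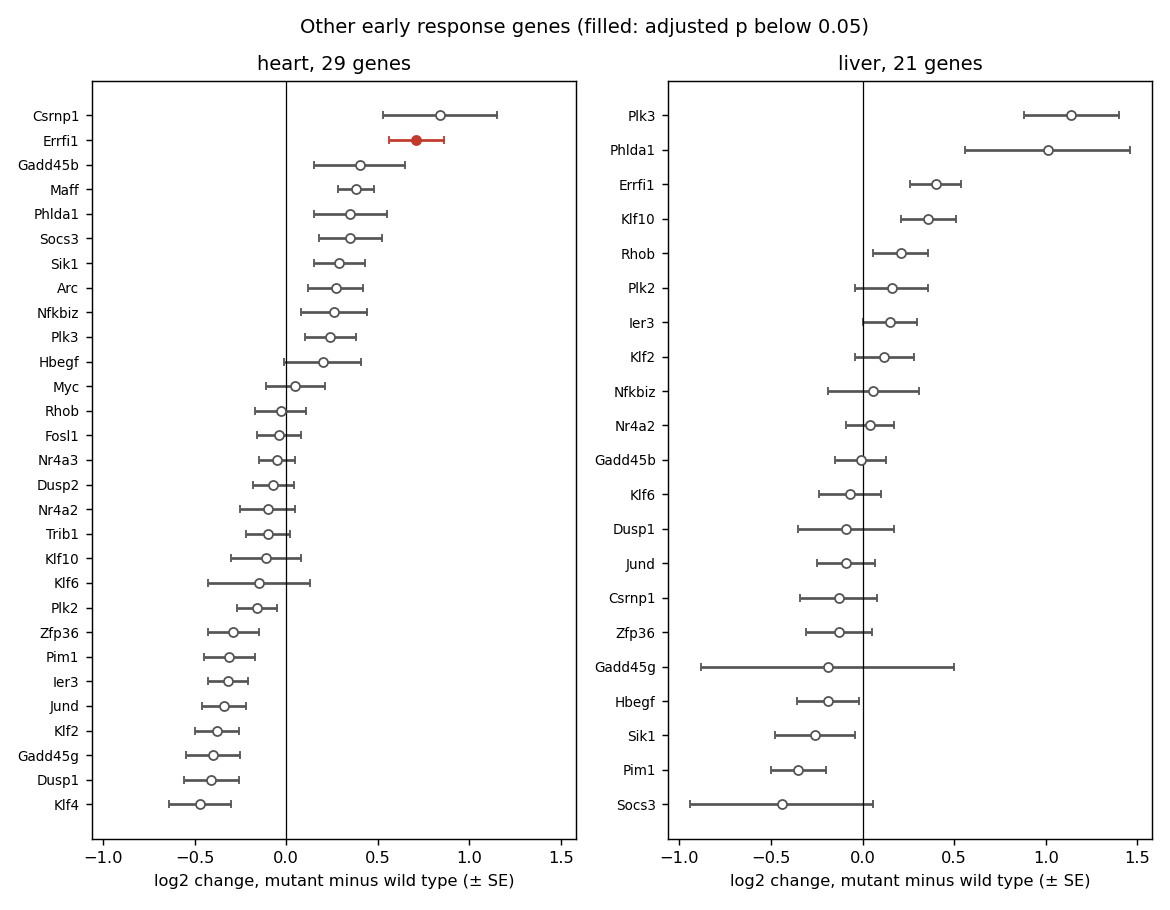
Log2 change, mutant minus wild type, of the other early response genes tested, 29 in the hearts (left) and 21 in the livers (right), sorted by size, with the SE of limma's fit as bars. The filled point, Errfi1 in the hearts, is the only one past an adjusted p of 0.05, and the points lie on both sides of 0 in both tissues.

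Upstream of the members, of 16 tested genes of the serum response and ERK pathways 1 rose in the hearts: Crem, a CRE-binding repressor and activator (log2 change 0.46 ± 0.10, limma adjusted p = 0.0427, 1 of 3 probes). That call held in 5 of 18 alternative settings and was lost without any single heart other than wild-type heart 1 (limma adjusted p = 0.0504 to 0.124). In the livers 0 of 12 passed limma's test, with 2 at an unadjusted p below 0.05, Map2k1, the kinase that activates ERK (log2 change -0.64, limma adjusted p = 0.176), and Mapk14, the p38 kinase (0.47, 0.233). Of the feedback inhibitors, 1 of 11 rose in the hearts (Errfi1 again) and 0 of 9 passed in the livers, with 6 and 2 at an unadjusted p below 0.05. Of the other AP-1 and ATF genes 0 of 12 passed in the hearts and 0 of 5 in the livers, with 4 and 0 at an unadjusted p below 0.05. Beside these counts, 2.18% of all heart genes and 0.13% of all liver genes were called. Before adjustment, 15.7% of all heart probes and 11.4% of all liver probes had p below 0.05.

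Among genes tied to the CCN members, 0 of 13 YAP and TEAD genes passed limma's test in the hearts and 0 of 8 in the livers, with 4 and 3 at an unadjusted p below 0.05. Yap1 itself stood at -0.45 ± 0.12 in the hearts (limma adjusted p = 0.0854), and Vgll4, a TEAD-binding repressor, at -0.62 in the hearts and 0.63 in the livers (limma adjusted p = 0.163 and 0.0929). Both other CCN genes with a probe were tested, and neither passed in either tissue: Ccn5 stood at 0.49 in the hearts and -0.30 in the livers (limma adjusted p = 0.164 and 0.389). Of 13 genes of TGF-beta input and targets, a pathway known to induce Ccn2, 2 rose in the hearts. They were Timp1, an inhibitor of matrix proteases (log2 change 1.55 ± 0.17, limma adjusted p = 0.000901), and the collagen gene Col1a1 (0.74 ± 0.13, adjusted p = 0.0142), whose call was lost without mutant heart 3 (adjusted p = 0.0507). In the livers 0 of 10 passed limma's test, with 1 at an unadjusted p below 0.05. The shares over all genes called were 2.18% in the hearts and 0.13% in the livers. Those of all probes at an unadjusted p below 0.05 were 15.7% and 11.4%.

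Clock and stress-hormone signals are known inputs to early response genes. Of 15 clock and clock-output genes, 4 rose (Nr1d1, Ciart, Clock and Dbp) and 1 fell (Nfil3) in the hearts, and 2 of 15 rose in the livers (Usp2 and Ciart), with 2.18% of all heart genes and 0.13% of all liver genes called. Clock rose by 1 of its 2 heart probes, and the other was not called and not positive. At an unadjusted p below 0.05 there were 10 of 15 in the hearts and 12 of 15 in the livers, against 15.7% of all heart probes and 11.4% of all liver probes. Leaving out single arrays of the tissue kept the calls of Nr1d1 and Ciart in the hearts and of Usp2 in the livers, while each of the others was lost without at least 1 array. Of 8 glucocorticoid-responsive genes 1 rose in the hearts, the cell-cycle inhibitor Cdkn1a (log2 change 1.31 ± 0.21, limma adjusted p = 0.00779), and 0 of 8 passed in the livers, with 6 and 3 at an unadjusted p below 0.05. These counts use 1 probe per gene. Tsc22d3 was not called in the hearts by that probe (-0.38, limma adjusted p = 0.0992), but 1 of its 2 tested probes fell. The labels used here give no time of day for the tissue collection. Median log2 changes in hearts and livers were 0.03 and -0.03 for the serum response and ERK genes, -0.07 and -0.09 for the feedback inhibitors, 0.11 and 0.02 for the other AP-1 and ATF genes, -0.13 and 0.13 for the YAP and TEAD genes and 0.11 and 0.11 for the TGF-beta genes. They were -0.07 and 0.64 for the clock genes and 0.35 and 0.13 for the glucocorticoid genes, beside 0.01 over all genes in each tissue.

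Marker sums of some cell types differed between the same hearts, and those of others did not. The heart muscle sums overlapped, at 86710 to 104600 in the mutant hearts and 96370 to 172000 in the wild-type hearts. So did the sums of the macrophage, T and B cell, atrial, fat and hepatocyte lists. The summed background-subtracted intensity of 7 erythroid markers was 25970 to 30750 in the mutant hearts and 37100 to 74280 in the wild-type hearts, and 4 of the 7 fell, against 2.18% of all heart genes called. Their log2 changes were negative for 5 and positive for 2. The sum of 10 endothelial markers was 9645 to 11060 in the mutant hearts and 8371 to 9095 in the wild-type hearts, with 10 of 10 log2 changes positive and 0 past limma's test (5 at an unadjusted p below 0.05, against 15.7% of all heart probes). The sum of 7 smooth muscle and pericyte markers was 11040 to 13220 in the mutant hearts and 9402 to 9708 in the wild-type hearts, 0 past the test and 2 at an unadjusted p below 0.05. The sum of 11 fibroblast markers was 6917 to 7244 in the mutant hearts and 7409 to 9002 in the wild-type hearts. Of 10 tested, 6 log2 changes were positive and 4 negative, and 2 genes rose (Col1a1, and Col3a1 by 1 of 2 probes). Dcn, with mean log2 values of 12.29 in mutant and 12.55 in wild-type hearts, was not called (-0.27, limma adjusted p = 0.228). Bright probes weigh most in these sums. Lrat was above background on no heart. The neutrophil sums overlapped, at 163.8 to 342.0 in the mutant hearts and 220.7 to 2066 in the wild-type hearts (8 of 8 tested, 0 past the test and 3 at an unadjusted p below 0.05). Their part in the changes of Fos, Ccn1, Egr2 and Ccn2 was not tested.

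In the livers, where Egr1 was lower in the mutants by value, the sums of the endothelial, macrophage and fibroblast lists overlapped. Endothelial markers summed to 822.6 to 1068 in the mutant livers and 860 to 994.8 in the wild-type livers, macrophage and Kupffer cell markers to 612.4 to 691.3 in the mutants and 427.8 to 910.6 in wild type, and fibroblast and stellate cell markers to 1664 to 2127 in the mutants and 1267 to 1875 in wild type. Of these, 0 of 10, 0 of 7 and 0 of 9 tested genes passed limma's test, against 0.13% of all liver genes. At an unadjusted p below 0.05 there were 0, 1 and 0, against 11.4% of all liver probes. The sums of heart muscle and atrial markers did not overlap, at 9.434 to 27.7 in the mutant livers and 3.569 to 7.17 in the wild-type livers for 7 heart muscle markers, and at 17.77 to 26.14 in the mutants and 11.66 to 16.04 in wild type for 5 atrial ones. Of these 0 of 7 and 1 of 5 were bright enough to be tested, and Myh6, Actc1, Ryr2, Mybpc3, Sln and Myl7 were above background on no liver. The part of these lists in the Egr1 values was not tested.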

How the data were processed

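Total RNA was measured on 15 one-colour Illumina arrays. The authors deposited linear intensity per probe, from GenomeStudio 2011.1 per the submitters' processing notes. The normalization is not given in the sources used here and was kept. A second table has 15 columns whose names match no label and was not used. Of 25697 probes 23978 had 1 symbol in the platform annotation and 1719 were not listed.

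Background was taken per array as the mode of the low values with the SD below it. The normexp correction with an offset of 16 and log2 followed. Probes entered the test of a tissue when above background (normal p below 0.05) on at least 3 of its arrays. Genotypes were compared with limma 3.58.1 in R 4.3.3 (lmFit, eBayes, Benjamini-Hochberg over all probes tested), and tissues in a fit blocked by mouse (duplicateCorrelation with statmod 1.5.0, correlation 0.0116). The mouse pairing comes from the labels. The tissues of a mouse correlated at -0.038 to 0.053 in their deviations. The number of arrays limits the precision.

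The members, the gene lists and the tests were chosen with earlier results of these data known. All member probes are named. Of each other list up to 4 genes of smallest p and every called gene could be named, and for each list gene the probe with the highest mean was used. The 5 genes most like Fos, Egr1 and Ccn1 were ranked by within-genotype correlation, and the first are printed. The scripts were tested on simulated data. Alternatives were other offsets, a floor, quantile normalization, other filters, other limma settings, a fit of all arrays, a replicate block and leaving out each array.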

Additional observations from a re-analysis of the deposited data

Results flagged for a closer look

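The Egr2 value of wild-type liver 2 stood apart from the other wild-type livers. Its intensity was 118.6, against 123.7 to 124.3, and its log2 value 4.62, against 4.89 to 4.93. The gap to its nearest neighbour was 0.899 of the range of the group, above Dixon's critical value. It was the only such value among 36 groups of member values, and chance flags about 1 in 20.

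The genotype change differed between the tissues for Egr2 (liver minus heart -0.86 on the log2 scale) and for the Ccn1 probe ILMN_2710253 (1.08), both by limma's test of the difference itself. Neither call held in every setting. Egr2 no longer passed under the floor of 16 (-0.40) or once mutant liver 3 was dropped (-0.82), nor did ILMN_2710253 under an offset of 5. The liver values of Egr2 (115.4 to 124.3) were near background, which the floor of 16 left in. In the livers ILMN_2710253 lay near background (109.3 to 117.4), where a fall could hardly show. Its difference therefore rests mainly on the heart change.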

How the results depend on the processing

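The count of called heart probes (367) was 577 with an offset of 50, 105 with an offset of 5, 130 with a floor of 16 (93 shared), 604 with robust trended variances, 574 when all 15 arrays shared a fit, and 198 to 294 without single arrays. The 2 called member probes of the heart became 1 with an offset of 5 or with no filter and 0 with the floor, 3 in the fit of all arrays or with the replicate block, and 1 to 2 without single arrays. The liver count (12) was 1 with an offset of 5, 5 with the floor, 0 with no filter, 37 with robust trended variances, 152 in the fit of all arrays, and 2 to 54 without single arrays. The floor of 16 lay far below the liver backgrounds (109.85 to 109.87), so in the livers that setting removed no background. The member count in liver (0) was 1, Egr1, in the fit of all arrays, and stayed 0 without single arrays. The count for the tissue difference (248) was 106 with an offset of 5, 384 with the floor and 136 to 288 without single arrays. Its 2 member probes were 1 with an offset of 5 or the floor, and 1 to 3 without single arrays.

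Replicate numbers did not pair the genotypes (same-numbered deviations correlated at -0.106 to -0.051 in hearts and -0.043 to 0.014 in livers). With the replicate block 237 heart probes (216 shared with the 367) and 32 liver probes passed, 1 of them a member, Egr1 (-2.52, limma adjusted p = 0.000723). In heart the block gave Egr2 an adjusted p of 0.0412.

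Fos in heart lost its limma call with an offset of 5 (adjusted p = 0.110), the floor (0.200), no filter (0.111) and trend and robust settings (0.143). Egr2 in heart passed in the fit of all arrays (0.0206) and Ccn2 in heart with trend and robust settings (0.0343). The tissue difference of ILMN_2710253 lost its call with an offset of 5 (0.0654). Among the uncalled log2 changes, those that reached or crossed 0 included, in heart, Maff, Fosb and ILMN_1235571 at 0.00 with the floor, Junb 0.00 and ILMN_1235571 -0.09 with array weights, and, in the tissue difference with the floor, ILMN_2794645 0.10 and Ccn2 -0.12. Without single arrays the heart ranges were -0.01 to 0.11 for Jun, -0.20 to 0.06 for Junb, -0.23 to 0.19 for Egr1, -0.12 to 0.24 for ILMN_1235571 and -0.30 to 0.02 for ILMN_2794645. In liver ILMN_2710253 ran from -0.12 to 0.06 and Jun from -0.20 to 0.00, and the tissue difference of Ccn2 from -0.21 to 0.42. With the floor all heart values of Fosb (at most 9.62) became 16, which fixed its change at 0.00. The SE of Maff was 0 there as well. The cause of the other shifts was not tested.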
